A study of Mus musculus with 10 samples.

Results

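Aminoacyl-tRNA synthetases are the enzymes that join each amino acid to its tRNA. Their 38 genes were taken from the 17404 genes of the count table by symbol: the letter of an amino acid followed by ars, with the ending 1, 2 or l2 where present, plus Eprs, Farsa and Farsb. Of these, 20 encode cytosolic enzymes, 17 carry the ending 2 of a mitochondrial enzyme, and Tarsl2, a paralog of the cytosolic threonine enzyme, was kept apart. Gars and Kars, which supply both compartments, were counted as cytosolic. All 38 genes passed the filter of 11 counts in total and were among the 16725 genes tested.

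The data are bulk SmartSeq2 RNA-seq libraries of long-term hematopoietic stem cells (LT-HSCs) sorted from fetal livers at E14.5. The knockout (KO) group holds 6 libraries of genotype Tnfrsf11aCre; Spi1f/f, and the control (WT) group holds 4 of genotype Tnfrsf11a+/+; Spi1f/f, so the WT embryos also carry the floxed Spi1 alleles but no Cre. The Cre is expressed from the Tnfrsf11a locus, which is active in the precursors of fetal macrophages, and Spi1 encodes PU.1, a transcription factor that macrophages need, so the model was built to deplete macrophages around the stem cells rather than to delete Spi1 in them. The comparison therefore asks how LT-HSC transcripts differ between livers of the 2 genotypes.

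Total counts ranged from 5315435 to 30941726 per library. Spi1 lay between 9.10 and 101 CPM (normalised counts scaled by library size) in KO and between 6.22 and 50.1 in WT, a level in sorted stem cells that does not check the labels of a deletion aimed at macrophages. Xist, the RNA that coats the inactive X chromosome of female cells, was high in all 4 WT but in only 2 of 6 KO libraries (log2 CPM of 6.73 to 8.50, beside 0.512 to 1.30 in the other 4), so sex and genotype are partly aligned. Among the 8 LT-HSC markers, all were detected in every library and all had higher values in KO, 3 of them past the threshold (Mecom, Hlf and Cd34), and their summed level did not overlap between groups (556 to 1488 CPM in KO, 357 to 545 in WT). Summed erythroblast markers, led by globin genes, spanned 2149 to 94998 CPM in KO and 2343 to 240339 in WT, with 0 of 9 genes higher in KO, and macrophage markers 140 to 761 and 33.0 to 625, with 1 of 9 higher. The hepatoblast sum spanned 61.6 to 6058 CPM in KO and 150 to 4204 in WT (6 of 6 genes higher in KO), the megakaryocyte sum 157 to 3137 and 159 to 1097 (5 of 5), the endothelial sum 901 to 6121 and 207 to 3844 (5 of 6) and the granulocyte sum 10.7 to 1235 and 6.07 to 2121 (5 of 8). Of these 6 lists, 1 macrophage gene passed the threshold and all sums overlapped between groups. Vsig4 and Hbb-bs were not analysed here. The part of these other cells' RNA in the synthetase results was not tested. In bulk samples, fewer cells of a type and less RNA per cell cannot be told apart.

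Charging a tRNA takes ATP and a recognition step that sets the fidelity of the genetic code. Synthetases fall into class I and class II, which have unrelated catalytic domains, and several cytosolic members (the enzymes for arginine, aspartate, glutamine, isoleucine, leucine, lysine and methionine, and the fused glutamate and proline enzyme Eprs) are held in a multisynthetase complex by scaffold proteins. Mitochondria translate their own mRNAs and use a separate set of nuclear-encoded synthetases. When amino acids run short, uncharged tRNA activates the kinase GCN2 (Eif2ak4), which phosphorylates eIF2 alpha (Eif2s1) and raises translation of the transcription factor ATF4. ATF4 acts through a response element shared with C/EBP factors, and many cytosolic synthetase genes are among its known targets.

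Promoter sequence was available in the RefSeq table (build GRCm38.p6, 250 bases before to 50 after each start) for 28 of the 38 genes. Genes with no entry included Cars, Hars, Hars2, Lars, Nars, Pars2, Rars, Vars and Wars. The motif TGATGNAA, a common form of the ATF4 and C/EBP response element, was searched on both strands, where its other strand reads TTNCATCA. It was found in 5 of 13 cytosolic promoters (38.5%) and in 0 of 14 mitochondrial ones, beside 3.97% of all 32851 promoters in the table. The 5 genes were Aars, Gars, Iars, Tars and Yars, and in Iars and Yars the match lay after the start. The 250 bases before the start are shown for Gars and Tars, whose match lies there, and for Dars and Tarsl2, which are described below and hold no match. Aars, which is not shown, had matches at -112 and 10 from its start. Capitals mark the motif, and each sequence is written on the strand of its gene. The Gars window is chr6:55037751-55038000 (plus strand), the Tars window chr15:11399659-11399908 (minus strand), the Dars window chr1:128417417-128417666 (minus strand) and the Tarsl2 window chr7:65644648-65644897 (plus strand).
Gars: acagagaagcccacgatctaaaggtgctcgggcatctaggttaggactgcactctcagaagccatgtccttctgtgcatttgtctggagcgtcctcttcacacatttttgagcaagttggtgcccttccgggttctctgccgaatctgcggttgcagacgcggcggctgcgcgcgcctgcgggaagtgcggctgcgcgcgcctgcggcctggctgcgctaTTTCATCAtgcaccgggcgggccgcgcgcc
Tars: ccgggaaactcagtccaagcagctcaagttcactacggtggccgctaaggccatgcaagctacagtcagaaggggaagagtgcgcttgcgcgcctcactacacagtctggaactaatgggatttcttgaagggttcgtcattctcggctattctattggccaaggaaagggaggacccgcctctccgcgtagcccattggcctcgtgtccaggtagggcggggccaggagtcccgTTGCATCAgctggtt
Dars: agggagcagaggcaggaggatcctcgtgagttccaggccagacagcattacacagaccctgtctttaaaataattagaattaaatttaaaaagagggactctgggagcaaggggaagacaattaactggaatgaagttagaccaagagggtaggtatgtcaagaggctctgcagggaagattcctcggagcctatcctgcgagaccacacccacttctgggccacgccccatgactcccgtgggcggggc
Tarsl2: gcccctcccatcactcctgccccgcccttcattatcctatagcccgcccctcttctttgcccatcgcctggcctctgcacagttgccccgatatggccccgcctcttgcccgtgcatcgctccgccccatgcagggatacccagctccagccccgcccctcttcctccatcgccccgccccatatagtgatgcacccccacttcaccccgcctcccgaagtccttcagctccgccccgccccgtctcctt
The motif began 30 bases before the start in Gars and 15 bases before it in Tars. The 5 cytosolic genes with a match had a median log2 fold change (KO against WT) of -0.52, and the 8 without had one of -0.51. The range of the former, -0.58 to -0.36, lay within that of the latter, -0.87 to -0.10.

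Most synthetase transcripts had lower values in KO LT-HSCs, and few of them passed the test singly. Of the 38 genes, 31 had a log2 fold change below 0, where 46.9% of all genes tested did; on library sizes without the TMM factors that scale libraries in edgeR the number was 23, and in a limma fit on log2(TPM + 1), a scale set by transcript length and library, it was 17. Nars (asparagine) and Tarsl2 (threonine) were lower at an adjusted p below 0.1 in edgeR's quasi-likelihood test, and no synthetase was higher. The background was 2.67% of all genes called lower and 1.32% called higher. DESeq2 with the study's settings called the same 2 genes lower and none higher, beside 3.29% and 3.50% of all genes. In edgeR the smallest adjusted p over all genes was 0.0743, so every edgeR call lies close to the threshold; with the study's DESeq2 settings the adjusted p was 0.0537 for Nars and 0.0196 for Tarsl2. Neither gene passed in edgeR with Xist as a covariate (adjusted p = 0.285 for both), with a transcript length offset, without TMM factors, or in limma on log2(TPM + 1). The fits with the covariate or the offset called 0 genes of the whole table, the fit without TMM factors 37 and limma 487. The log2 fold changes with the covariate were -0.94 for Nars and -1.55 for Tarsl2, and with the offset -0.79 and -1.61. Neither passed without WT1 (0.178 for Nars and 0.197 for Tarsl2) or without any of KO1, KO2, KO4, KO5 and KO6 (0.130 to 0.205 for Nars and 0.134 to 0.205 for Tarsl2), fits in which edgeR called at most 1 gene of the whole table.

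**Figure D1:**
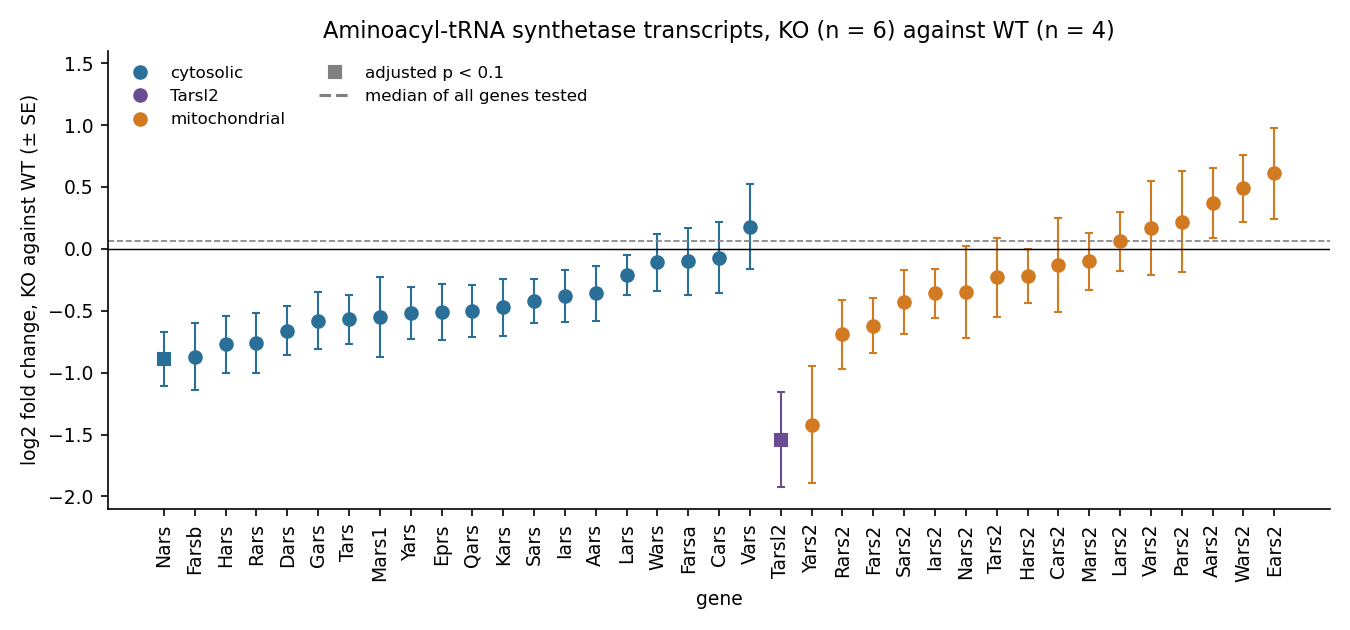
Log2 fold change of 37 of the 38 synthetase genes, KO (n = 6) against WT (n = 4), with its SE, ordered within cytosolic enzymes, Tarsl2 and mitochondrial enzymes. Squares mark Nars and Tarsl2, the genes past an adjusted p of 0.1, and the dashed line marks the median of all genes tested, 0.06; 19 of 20 cytosolic genes lie below 0, 15 of 20 in a fit without TMM factors and 10 of 20 on log2(TPM + 1).

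Among cytosolic enzymes, 19 of 20 genes had lower values in KO, from -0.89 for Nars to -0.07 for Cars, with Vars (valine) at 0.18 as the exception; 15 were lower without TMM factors and 10 on log2(TPM + 1). Their median log2 fold change was -0.51, beside 0.06 over all genes tested. At an unadjusted p below 0.05, 11 of the 20 were lower and 0 higher, where 10.2% of all genes were lower and 8.60% higher. The 11 were Dars, Eprs, Farsb, Gars, Hars, Nars, Qars, Rars, Sars, Tars and Yars, which charge tRNA for 12 amino acids between them. The median moved to -0.30 without the library WT1, to -0.24 on library sizes without TMM scaling and to 0.00 on log2(TPM + 1). The last 2 scalings moved the median of all genes to 0.32 and 0.27, and relative to it the cytosolic median was -0.56 and -0.27, against -0.57 in the reported fit. They also turned the calls over all genes from 221 higher and 446 lower to 34 higher and 3 lower, and to 475 higher and 12 lower.

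The mitochondrial enzymes were more mixed. Of 17 genes, 11 had lower and 6 higher values in KO, with a median of -0.22 that turned to 0.05 without TMM scaling and to 0.25 on log2(TPM + 1), or -0.27 and -0.02 relative to all genes. The fold changes ran from -1.42 (SE 0.47) for Yars2, the tyrosine enzyme, to 0.61 (SE 0.37) for Ears2, the glutamate enzyme. None passed the adjusted threshold in edgeR or with the study's DESeq2 settings. DESeq2 without a fold-change threshold called 3 of the 17 lower, Fars2 and Yars2 among them, beside 1145 of all 16725 genes called lower. At an unadjusted p below 0.05, 4 of the 17 were lower, Fars2, Rars2 and Yars2 among them, and none was higher. Over all genes tested, 10.2% were lower and 8.60% higher at that p. The difference between the compartments itself was not tested. For the 14 amino acids with 1 cytosolic and 1 mitochondrial gene each, the cytosolic fold change was the lower of the pair in 9 and the mitochondrial in 5.

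Nars encodes the cytosolic asparagine enzyme (chromosome 18, 64499647 to 64516652, minus strand, in Gencode vM21 on GRCm38). Its level was 240, 190, 271, 211, 221 and 301 CPM in KO1 to KO6 and 689, 354, 400 and 329 CPM in WT1 to WT4. Every KO library lay below every WT library, and WT1 stood well above the other WT libraries. The means were 239 ± 40.9 CPM (SD, n = 6) in KO and 443 ± 167 (SD, n = 4) in WT, a log2 fold change of -0.89 (SE 0.22, edgeR adjusted p = 0.0836; 0.150 with a transcript length offset). Over the alternatives in which it was fitted, the adjusted p ran from 0.0162 to 0.837, and the fold change stayed below 0 in all 25, at -0.59 without WT1 and -0.40 on log2(TPM + 1). None of its 31-base stretches occurs in another gene's transcripts. Its mitochondrial counterpart Nars2 had 13.8 to 23.7 CPM in KO and 7.50 to 39.3 in WT, with WT4 the lowest and WT1 the highest library (log2 fold change -0.35, SE 0.37, edgeR adjusted p = 0.663). The fold change of Nars2 was -0.01 without WT1, -0.65 without WT4 and 0.65 on log2(TPM + 1).

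Tarsl2 is the threonyl-tRNA synthetase-like gene on chromosome 7 (65644898 to 65692091, plus strand). Its level was 15.3, 10.1, 15.1, 12.3, 7.89 and 15.0 CPM in KO1 to KO6 and 68.3, 27.0, 36.2 and 14.9 CPM in WT1 to WT4. The groups met at WT4, which fell within the KO range, while the other 3 WT libraries lay above it. The means were 12.6 ± 3.09 CPM (SD, n = 6) in KO and 36.6 ± 22.9 (SD, n = 4) in WT, a log2 fold change of -1.54 (SE 0.38, edgeR adjusted p = 0.0824; 0.133 with a transcript length offset). The adjusted p ran from 0.00646 to 0.837 over the alternatives, with a fold change below 0 in all 25, at -1.04 without WT1 and -0.85 on log2(TPM + 1).

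Tarsl2 is the minor of the 3 threonine genes. In WT libraries Tars, the main cytosolic enzyme, had 59.6 ± 15.8 TPM (a level scaled by transcript length and library; SD, n = 4), the mitochondrial Tars2 46.7 ± 19.2 and Tarsl2 12.2 ± 7.71. Tars had 87.9 to 134 CPM in KO and 120 to 220 in WT, with 4 of 6 KO libraries below all WT libraries (log2 fold change -0.57, SE 0.20, edgeR adjusted p = 0.152; -0.13 on log2(TPM + 1)). Tars2 had 72.6 to 108 CPM in KO, inside the 34.4 to 146 of WT (log2 fold change -0.23, SE 0.32, edgeR adjusted p = 0.751; 0.05 without TMM scaling, -0.02 without WT1 and -0.52 without WT4).

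Dars, the aspartate enzyme of the multisynthetase complex (chromosome 1, 128363707 to 128417368, minus strand), was the only other synthetase whose groups did not overlap in CPM. Its level was 129, 111, 114, 117, 101 and 115 CPM in KO and 267, 157, 134 and 168 CPM in WT. The lowest WT library, WT3, stood just above the highest KO library, KO1. The log2 fold change was -0.66 (SE 0.20, edgeR adjusted p = 0.110), which did not pass the threshold, and it was -0.42 without WT1, -0.42 without TMM factors and -0.16 on log2(TPM + 1). So in CPM 2 of 38 synthetases lay wholly below WT and none wholly above, where 3.48% of all genes tested lay below and 2.88% above. This depended on the scale. In TPM the groups overlapped for Nars (76.4 to 121 in KO, 93.8 to 222 in WT) and Dars (42.7 to 74.0 and 39.1 to 106). Lars2 lay wholly above WT in TPM (163 to 259 and 94.2 to 156). The share of all genes in TPM is not given here.

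**Figure D2:**
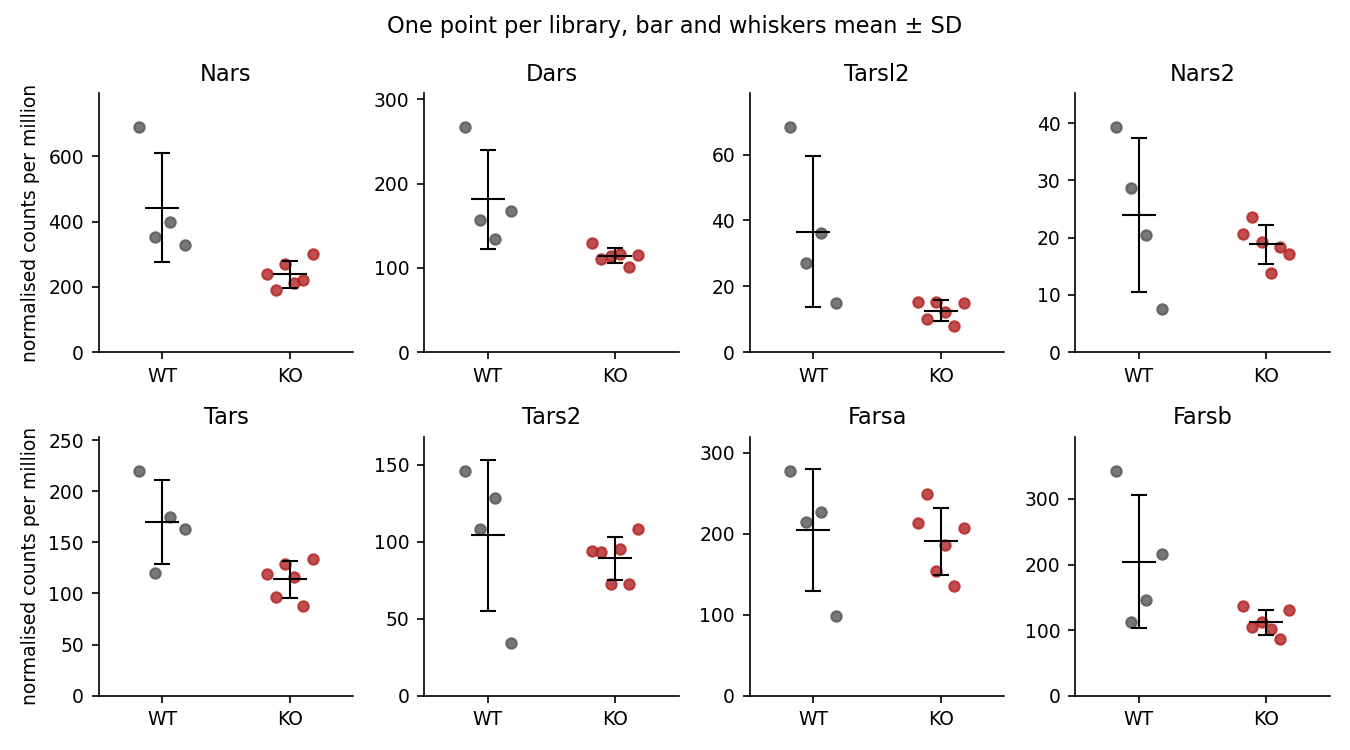
Normalised CPM in each library for 8 synthetase genes, WT (n = 4) and KO (n = 6), with the mean and SD of each group; each axis starts at 0. In Nars and Dars all KO points lie under all WT points, Tarsl2 meets KO at 14.9 CPM in WT4, and Nars2, Tars, Tars2, Farsa and Farsb overlap.

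The 8 enzymes of the multisynthetase complex all had lower values in KO, from -0.76 for Rars to -0.21 for Lars, with a median of -0.51; 7 were lower without TMM factors and 4 on log2(TPM + 1). Outside the complex, 11 of 12 cytosolic genes were lower, with a median of -0.47. None of the 8 passed the adjusted threshold in edgeR, and 4 had an unadjusted p below 0.05. By catalytic class, 10 of 10 cytosolic class II genes were lower (median -0.58, 7 at an unadjusted p below 0.05), beside 8 of 9 class I genes (median -0.38, 3 at that p). Over all genes tested, 46.9% had a log2 fold change below 0 and 10.2% were lower at an unadjusted p below 0.05. The class counts are from the reported fit, and no difference between the groups was tested. Of all 20 cytosolic genes, 15 were lower without TMM factors and 10 on log2(TPM + 1).

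The phenylalanine enzyme is built of 2 kinds of subunit, and their transcripts had different values. Farsb had a log2 fold change of -0.87 (SE 0.27, edgeR adjusted p = 0.123) and Farsa of -0.10 (SE 0.27, edgeR adjusted p = 0.874), which turned to 0.44 on log2(TPM + 1). The difference between them was not tested. The ratio of Farsa to Farsb TPM was 1.71, 2.67, 1.55, 2.04, 1.83 and 1.78 in KO1 to KO6 and 0.888, 2.05, 1.66 and 0.501 in WT1 to WT4. WT2 and WT3 thus lay within the KO range and WT1 and WT4 below it. This pair was chosen after its values were seen.

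Per transcript length, levels in WT spanned from 175 ± 61.9 TPM (SD, n = 4) for Qars, the glutamine enzyme, to 1.70 ± 0.649 for Mars2, the mitochondrial methionine enzyme. Kars (lysine) followed at 156 ± 61.3, Lars2 (mitochondrial leucine) at 138 ± 29.7, Nars at 138 ± 58.7 and Vars at 101 ± 42.6. At the lower end, Ears2 stood at 3.53 ± 1.54 TPM and Wars2 (mitochondrial tryptophan) at 3.44 ± 1.23. Only 1 of the 37 steps between neighbours in this order was larger than the larger of their SDs. In 13 of the 14 pairs the cytosolic gene had the higher WT mean, and leucine was the exception.

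Lars2 needs care. In KO it had the highest mean of all synthetases, 208 ± 37.5 TPM (SD, n = 6). Of its estimated counts, 93.5% were assigned to the transcript Lars2-209, annotated as subject to nonsense-mediated decay, and 4.32% to the coding Lars2-201. So its level is mostly that of this 1 transcript. Its CPM was 543, 688, 543, 630, 937 and 661 in KO and 404, 584, 948 and 627 in WT, which overlap widely (log2 fold change 0.06, SE 0.24, edgeR adjusted p = 0.924), and the sign turned without KO5 (-0.04) and without WT1 (-0.11). On TPM the groups did not overlap, at 163 to 259 in KO and 94.2 to 156 in WT. The log2 fold change was 0.35 without TMM factors (edgeR adjusted p = 0.403). It was 0.59 on log2(TPM + 1) (SE 0.222, limma adjusted p = 0.166).

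The other genes at the ends of the order did not pass the test. Qars had 119 to 172 CPM in KO and 130 to 285 in WT (log2 fold change -0.50, edgeR adjusted p = 0.221; -0.31 without WT1 and 0.00 on log2(TPM + 1)), with its most abundant transcript taking 19.4% of its counts over 34 annotated forms. Kars had 194 to 352 and 283 to 568 CPM (-0.47, edgeR adjusted p = 0.285; -0.22 without WT1 and 0.00 on log2(TPM + 1)). Vars had 156 to 359 and 79.8 to 293 CPM (0.18, edgeR adjusted p = 0.822), with a turn to -0.09 without WT4 and 0.71 on log2(TPM + 1). Wars2 had 14.4 to 23.6 and 9.61 to 16.9 CPM, with 5 of 6 KO libraries above all WT libraries (0.49, edgeR adjusted p = 0.360; 0.94 on log2(TPM + 1)). Ears2 had 10.5 to 19.4 and 4.25 to 13.3 CPM (0.61, edgeR adjusted p = 0.400; 0.36 without WT4), and Mars2 18.2 to 23.9 and 18.3 to 30.0 CPM (-0.10, edgeR adjusted p = 0.864; -0.59 with a transcript length offset, -0.31 with a GC content offset and 0.14 without TMM scaling).

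**Figure D3:**
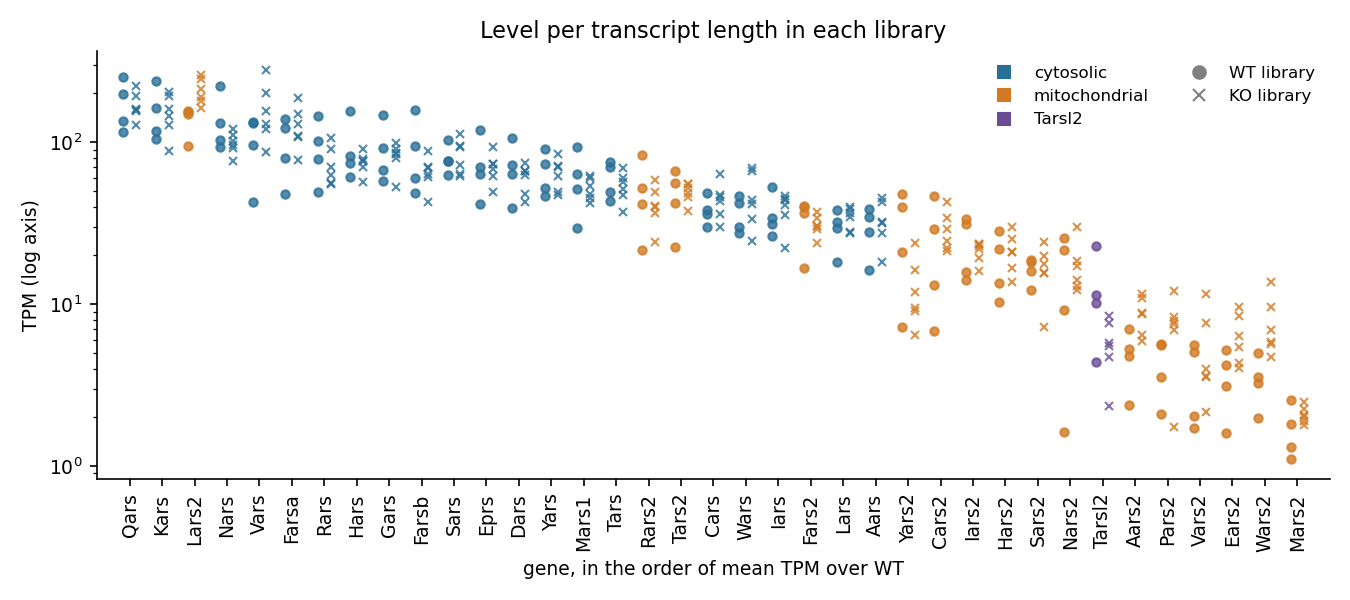
TPM of 37 of the 38 synthetase genes in each of the 10 libraries on a log axis, in the order of the WT mean, circles for WT and crosses for KO. Qars leads at a WT mean of 175 TPM and Mars2 ends the order at 1.70; Lars2 is the only mitochondrial gene among the highest, and neighbours overlap.

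The libraries did not contribute equally. WT1 was the highest of the 10 libraries for 25 of 38 synthetases, 16 of them cytosolic, and its median ratio to the gene's mean was 1.61. KO5 was the lowest for 14 genes (median ratio 0.732) and WT4 for 10 (0.863). Summed over the 20 cytosolic genes, the level was 3410, 3205, 3458, 3046, 2655 and 3464 CPM in KO1 to KO6 and 6385, 3728, 4305 and 3443 CPM in WT1 to WT4, so WT4 lay within the KO range. On the TPM scale the same sums were 1587 ± 301 in KO (SD, n = 6) and 1614 ± 555 in WT (SD, n = 4). WT1 also had the lowest summed macrophage (33.0 CPM), endothelial (207 CPM) and granulocyte (6.07 CPM) markers of all libraries, where the others began at 140, 901 and 10.7 CPM. Its LT-HSC marker sum was low too, at 363 CPM, beside 357 in WT3 and 556 to 1488 in KO. Its erythroblast (2343), hepatoblast (150) and megakaryocyte (159) sums were not the lowest, which were 2149 in KO2, 61.6 in KO1 and 157 in KO3. The part of these marker levels in the synthetase values was not tested. Without WT1, no synthetase and no gene at all was called by edgeR, 9 synthetases being lower at an unadjusted p below 0.05. In the fit of all libraries 16 of 38 were lower at that p, beside 10.2% of all genes. The share of all genes in the fit without WT1 is not given here, so the 9 have no background.

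**Figure D4:**
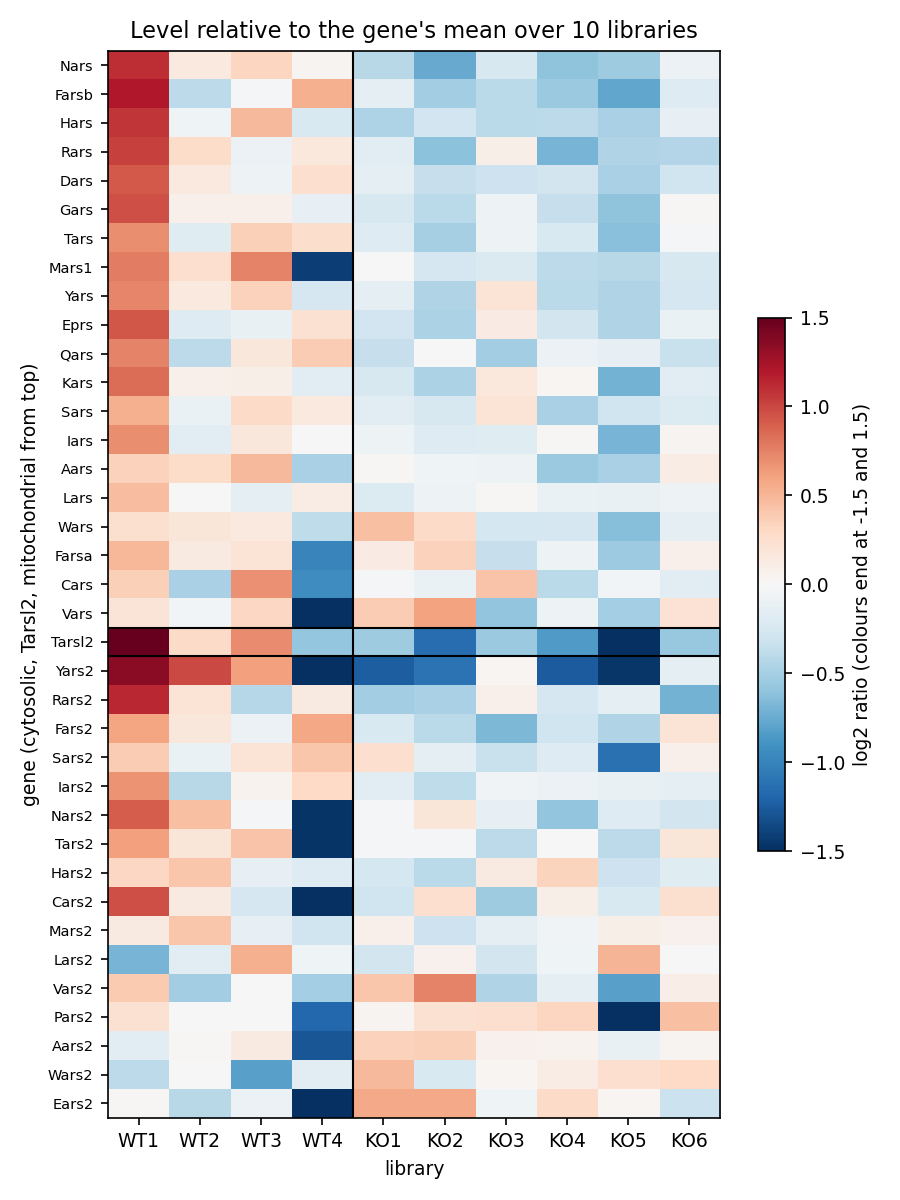
Log2 ratio of each library's CPM to the gene's mean over the 10 libraries, for 37 of the 38 synthetase genes (cytosolic, Tarsl2 and mitochondrial from the top), with WT libraries left of the line and KO libraries right of it. Over all 38 genes, WT1 is the highest library for 25 and KO5 the lowest for 14, while WT4 is the lowest for 10.

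The 16 partners and helpers of tRNA charging include the scaffold proteins of the complex, the enzymes that make mitochondrial glutaminyl-tRNA and formyl-methionyl-tRNA, tRNA end repair, editing proteins and the elongation factors that receive charged tRNA. Pstk and Sepsecs were also on this list. All 16 had lower values in KO, where 46.9% of all genes did, with a median of -0.51; 15 did without TMM factors and 8 on log2(TPM + 1), and 13 without WT1, where the median was -0.26. By the adjusted p, 1 of 16 was called lower, beside 2.67% of all genes, and 2 of 16 lay wholly below WT, beside 3.48%. The gene called was Eef1e1, a scaffold protein of the multisynthetase complex also known as AIMP3. Its level was 55.3, 44.7, 42.9, 43.0, 56.1 and 54.2 CPM in KO and 216, 86.1, 74.7 and 87.0 CPM in WT, with no overlap (log2 fold change -1.23, SE 0.28, edgeR adjusted p = 0.0824; 0.146 with a transcript length offset). Trnt1, which adds the CCA end to tRNA, did not overlap either, at 41.0 to 50.5 CPM in KO and 54.3 to 160 in WT, but missed the threshold (-0.85, SE 0.30, edgeR adjusted p = 0.158). The other 2 scaffold genes, Aimp1 and Aimp2, had -0.64 and -0.67, with edgeR adjusted p of 0.186 and 0.178.

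Genes of the amino acid response had values on both sides of 0. The higher ones ran from 0.02 (SE 0.31) for Slc7a1 to 1.20 (SE 0.98) for Trib3. At an unadjusted p below 0.05, 6 were lower and 0 higher, where 10.2% of all genes were lower and 8.60% higher. On log2(TPM + 1), 9 had lower values. Of 22 genes on this list, 15 had lower and 7 higher values in KO, where 46.9% of all genes were lower, with a median of -0.37 that turned to 0.13 on log2(TPM + 1), and 2 of 22 were called, both lower, beside 2.67% of all genes called lower and 1.32% higher. Eif2s1, the phosphorylated subunit of eIF2, had 141 to 237 CPM in KO and 270 to 525 in WT, with no overlap (log2 fold change -0.98, SE 0.22, edgeR adjusted p = 0.0824; 0.133 with a transcript length offset). Mthfd2, a mitochondrial folate enzyme, had 23.3 to 49.1 CPM in KO and 38.9 to 119 in WT, with 5 of 6 KO libraries below all WT libraries (-1.25, SE 0.32, edgeR adjusted p = 0.0836; 0.205 with that offset). Asns, which makes asparagine, had 120 to 201 CPM in KO and 756, 182, 385 and 128 in WT1 to WT4; it passed in DESeq2 with the study's settings (adjusted p = 0.0758) and not in edgeR (-1.32, SE 0.40, adjusted p = 0.113). Atf4 itself was at -0.30 (SE 0.21, edgeR adjusted p = 0.487), and Ddit3, Trib3 and Chac1, stress targets of ATF4, at -0.60, 1.20 and 0.26, with edgeR adjusted p of 0.287, 0.548 and 0.949. Their SEs were 0.29, 0.98 and 1.53. Trib3 and Chac1 lay near the floor, Trib3 at 3.41 to 23.6 CPM in KO and 0 to 9.54 in WT, and Chac1 at 0 to 9.60 and 0 to 6.88.

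**Figure D5:**
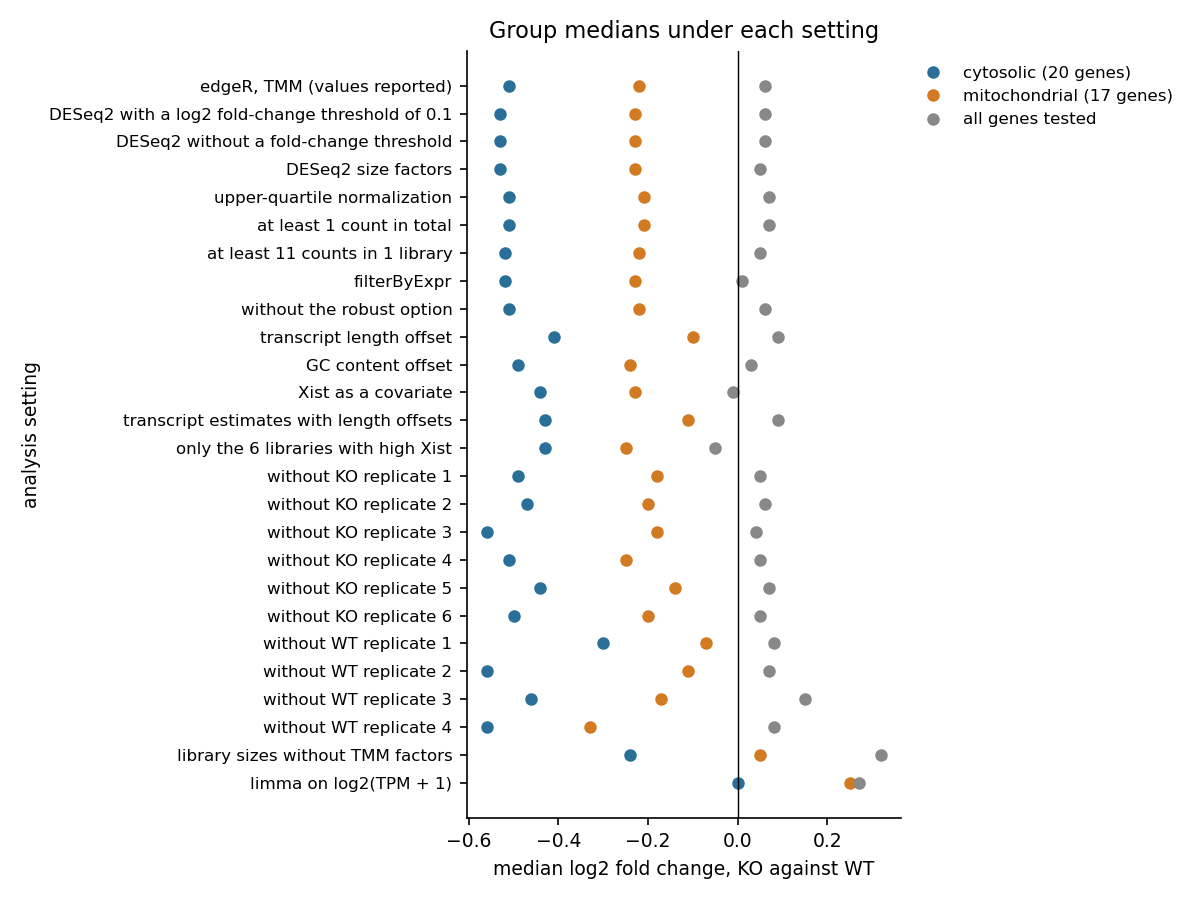
Median log2 fold change, KO against WT, of the 20 cytosolic synthetases, the 17 mitochondrial synthetases and all genes tested, under the reported fit and each alternative. The cytosolic median runs from -0.56 to 0.00; the mitochondrial one is below 0 except without TMM factors (0.05) and on log2(TPM + 1) (0.25), where the median of all genes is 0.32 and 0.27.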

How the data were processed

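LT-HSC RNA from 10 libraries was made into SmartSeq2 libraries and sequenced single-end with 75 cycles by the authors, demultiplexed with bcl2fastq 2.20 and pseudoaligned with kallisto 0.44.0 to Gencode vM16 (mm10, GRCm38). They deposited whole-number counts per gene and, per library, estimated counts, effective lengths and TPM per transcript. For the synthetases, the deposited counts differed from the summed transcript estimates by at most 1.00 count. The strand setting is not given in the sources used here.

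Here, counts were fitted with edgeR 4.0.16 (robust quasi-likelihood, TMM, genes with at least 11 counts in total, Benjamini-Hochberg over all genes, threshold 0.1). DESeq2 1.42.0 with the study's log2 threshold of 0.1 and limma 3.58.1 on log2(TPM + 1) were alternatives. CPM are TMM-scaled. Levels between genes were compared by TPM only. Replicates were numbered in accession order, and p-values measure the spread between these libraries. The fit was tested on simulated counts with known changes.

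Gene positions and transcripts came from Gencode vM21 on GRCm38, and 16941 symbols matched directly and 299 by synonym. The synthetase genes and both other lists were chosen with earlier results of these data known. Genes described singly are those called in edgeR or with the study's DESeq2 settings, those whose groups do not overlap, the 5 highest and 3 lowest by WT TPM, the enzyme for the same amino acid in the other compartment of each called gene, and the threonine genes; others are named at range ends or after their values were seen. The results of 1 gene are not reported here singly, and it counts only in group totals. Alternatives were other normalizations, filters, offsets for transcript length and GC content, Xist as a covariate, an adjusted p of 0.05 and each library left out. Those chosen after seeing the data were the 6 libraries with high Xist, library sizes without TMM and the TPM fit. The transcript length offset took each gene's mean over its annotated transcripts, which need not match the form expressed. For Nars that mean was 1473 bases, beside 2687 for its most abundant transcript.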

Additional observations from a re-analysis of the deposited data

Results flagged for a closer look

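In each synthetase gene the spread of the 6 KO and of the 4 WT libraries was checked for a library far from the others by Dixon's ratio, 76 groups of libraries in all. It marked 3 of them (3.95%), and chance marks about 1 in 20. Gars, the glycine enzyme, had 413 CPM in WT1 and 194 to 222 CPM in the other WT libraries. Lars2 had 937 CPM in KO5 and 543 to 688 CPM in the other KO libraries. Pars2, the mitochondrial proline enzyme, had 4.39 CPM in KO5 and 12.9 to 17.1 CPM in the other KO libraries. No cause of these was tested.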

How the results depend on the processing

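No synthetase was called higher in KO under any of the 26 alternatives. At an unadjusted p below 0.05 the counts changed with the scaling. Without TMM factors 4 of 38 were lower and 2 higher, and in limma on log2(TPM + 1) 0 were lower and 4 higher. DESeq2 without a fold-change threshold gave 16 lower and 1 higher, and transcript estimates with length offsets 13 and 1. The shares of all genes at that p in these fits are not given here. The 2 calls lower became 10 with DESeq2 without a fold-change threshold (among them Dars, Farsb, Hars, Rars, Tars and Yars2; 2143 of all 16725 genes were then called, against 667), 5 with filterByExpr (972 of 13665 genes called), 1 with transcript estimates and length offsets, and 0 with the transcript length offset, Xist as a covariate, the 6 libraries with high Xist, library sizes without TMM factors, limma on log2(TPM + 1) or an adjusted p below 0.05. With the transcript length offset, Xist as a covariate or the 6 libraries with high Xist, edgeR called 0 genes over the whole table. Leaving out each library in turn gave 0 to 6 calls, with 0 without KO1, KO2, KO4, KO5, KO6 or WT1, fits in which at most 1 gene was called over the whole table. The cause was not tested. The single partner gene called became 2 with DESeq2 without a fold-change threshold and 0 in the same 6 settings, with 0 to 2 when a library was left out. The 2 amino acid response genes became 5 and 0 in those settings, with 0 to 4 when a library was left out. Among medians, the cytosolic one moved to -0.24 without TMM factors and 0.00 on log2(TPM + 1), and the mitochondrial one turned to 0.05 and 0.25. Leaving out each library, the cytosolic median ran from -0.56 to -0.30 and the mitochondrial from -0.33 to -0.07. Among single genes the sign turned in Lars2 (-0.04 with Xist as a covariate, -0.09 in the 6 libraries, -0.04 without KO5, -0.11 without WT1 to 0.35 without WT3), Mars2 (-0.20 without WT4 to 0.05 without WT2, 0.14 without TMM, 0.22 on TPM), Nars2 (0.65 on TPM), Qars (0.00 on TPM), Tars2 (0.05 without TMM, 0.17 on TPM) and Vars (-0.09 without WT4 to 0.41 without WT3). Lars2 also moved to 0.35 without TMM factors and to 0.59 on log2(TPM + 1). The study describes its controls as littermates of the KO embryos. The labels name no litter and no replicate numbers shared between genotypes, so no paired analysis was possible.

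The lowest synthetase count in a library was 30, for Ears2 in WT4, so counting error is largest for the rarer mitochondrial genes; KO2, the shallowest library, had 123 counts for that gene. Reads shared between genes limit some others. The share of 31-base stretches also found in another gene's transcripts was 23.6% for Iars2, 14.7% for Iars and 14.4% for Aars. Hars and Hars2 overlap head to head, and SmartSeq2 does not mark the strand of a read.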

Other observations

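The most abundant transcript was protein coding in 33 of the 38 synthetase genes. In Lars2, Qars, Vars and Vars2 a decay-annotated or intron-retaining form took the largest share of the estimated counts (93.5%, 19.4%, 49.4% and 51.0%).

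Across the 38 genes, the log2 fold change had a Spearman rho of 0.537 with the GC content of the annotated transcripts, 0.342 with their mean length and -0.416 with the WT TPM. These values are across genes that share the same 10 libraries and are not independent. Over all 16569 genes with a length, the rho with length was 0.227, and it was 0.0283 after the transcript length offset, under which 18 of 20 cytosolic and 10 of 17 mitochondrial synthetases had values below 0 (medians -0.41 and -0.10).

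The TTNCATCA or TGATGNAA motif was also found in the promoters of 5 of 20 amino acid response genes with an entry: Asns, Chac1, Nupr1, Slc7a11 and Trib3. Their log2 fold changes were -1.32 (SE 0.40), 0.26 (SE 1.53), -0.90 (SE 0.78), -0.87 (SE 0.36) and 1.20 (SE 0.98), on both sides of 0.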
